A study of Mus musculus with 18 samples.

Results

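The comparison described here is the effect of the Cysltr1 genotype on mouse bone marrow cultures that had received tumour-cell medium. It uses 6 of the 18 libraries of the series, chosen by their titles: 3 titled Cysltr1-/- and 3 titled WT. Both groups were marrow grown for 4 days with GM-CSF (40 ng/mL) and 50% (v/v) medium taken after 24 h from EMT6 cells, a mouse mammary carcinoma line. The other 12 libraries hold the same genotypes, 3 libraries per group, with GM-CSF alone or with GM-CSF and IL-6 (40 ng/mL each), so GM-CSF was common to every culture. Each sample pooled marrow from 3 mice, and RNA of the whole culture was poly(A)-selected and sequenced. WT mice were BALB/c; the wording does not make plain whether that strain also holds for the deficient mice, and whether the genotypes were littermates is not stated. Nor do the labels state the sex and age of the mice or how the Cysltr1 allele was made. Because the Cysltr1 counts went against the genotype label, as given below, the groups are called labelled Cysltr1-/- (or labelled-deficient) and WT.

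Cysltr1 encodes a G protein-coupled receptor for the cysteinyl leukotrienes, lipid mediators that 5-lipoxygenase and its partner FLAP start to make from arachidonic acid. The receptor is best known for airway smooth muscle contraction and for the recruitment of leukocytes, and it is found on myeloid cells. GM-CSF drives the growth of granulocytes, monocytes and macrophages from marrow progenitors. Medium of tumour lines is added to such cultures to model how a tumour shapes myeloid cells, among them cells that hold back T cells.

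The 2 groups differed in what their reads were before any gene is considered. Counts in annotated genes were 13.0, 9.58 and 10.3 M in the labelled Cysltr1-/- libraries, against 18.2, 13.7 and 15.7 M in the WT libraries. Reads in no annotated feature made up 50.2% ± 0.152 of all reads in labelled Cysltr1-/- libraries and 36.2% ± 1.39 in WT libraries (SD, n = 3 each). Reads that did not align averaged 13.3% in labelled-deficient and 10.7% in WT libraries. The groups did not overlap in any of these shares, and p was 0.1 in the two-sided exact permutation test of each, the smallest that 3 against 3 can give. In the 4 groups without EMT6 medium the mean share of reads in no feature was 14.2% to 19.5%.

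**Figure D1:**
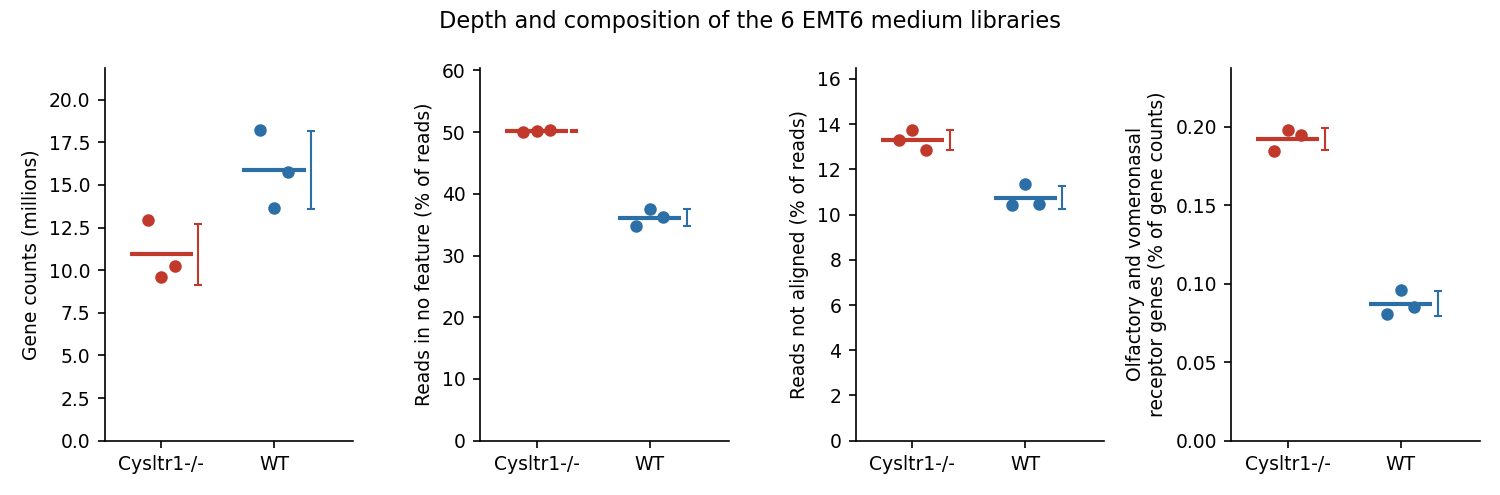
Read composition of the 6 EMT6 medium libraries, labelled Cysltr1-/- left of WT in each panel: counts in annotated genes in M, and the percentages of reads in no annotated feature, of reads not aligned, and of gene counts that fall on olfactory and vomeronasal receptor genes. Dots are libraries, lines are means and bars are SD (n = 3). The groups do not overlap in any panel; the means for reads in no feature are 50.2% and 36.2%.

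The same difference could be followed in genes that marrow cells are not known to use. Olfactory and vomeronasal receptor genes together took 0.184%, 0.198% and 0.194% of gene counts in the labelled Cysltr1-/- libraries, against 0.0804%, 0.0961% and 0.0854% in the WT libraries. CPM are counts scaled to the library's total in genes, and TMM scaling multiplies that total by a factor per library. With TMM scaling, reads outside annotated exons had a density of 0.622 CPM per kb in labelled-deficient and 0.333 in WT libraries. The log2 ratio was 0.90. Background levels set beside low-level genes below are the density of these reads times a gene's exon length, in CPM by library size without TMM. Genotype and read composition cannot be told apart in these 6 libraries, and the part of composition in the results was not tested beyond subtracting this background.

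Of 13892 genes with a mean of at least 5 CPM in either group, 4879 (35.1%) were higher and 4549 (32.7%) lower in labelled Cysltr1-/- than in WT cultures, at a Benjamini-Hochberg adjusted p under 0.05 in edgeR's quasi-likelihood test. The 9428 called genes were 67.9% of those tested, so a call by itself sets no gene apart. A difference of at least 2-fold was less frequent: 1100 genes (7.92%) were called with such a difference, 998 at least 2-fold higher (7.18%) and 102 at least 2-fold lower (0.734%). In 67% of the genes the libraries of the groups did not overlap. Lack of overlap was also a condition for naming the largest changes, so it sets no named gene apart. The split depended on the scaling, since 75.6% of calls were rises with library sizes alone and 51.8% with TMM scaling. The median log2 fold change over all genes was 0.01 with TMM scaling and 0.19 with library sizes alone. With the edgeR default filter, which kept 28334 genes, 62.0% of calls were rises. The p-values measure the spread between the libraries of a group, which need not be that between animals. Nothing in the labels says whether pools were cultured separately. Over the 18 libraries the common coefficient of variation beyond counting noise was 0.0432.

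The median difference varied with the level of expression and with the groups in which genes reached the minimum. Genes under 10 CPM had a median log2 fold change of 0.66 and held 877 of the at least 2-fold rises and 29 of the at least 2-fold falls. Of these 4090 genes, however, 2393 reached the minimum of 5 CPM only in labelled-deficient and 128 only in WT cultures. Most of them therefore entered the test only through the labelled-deficient group. The 1569 that reached it in both groups had a median of 0.12, with 42 such rises and 10 such falls. The median was -0.09 between 20 and 50 CPM, -0.20 between 100 and 1000 CPM and -0.34 for the 73 genes at 1000 CPM or more, and with the background subtracted it was -0.06, -0.10 and -0.23 in the same classes. Of the 998 genes with rises of at least 2-fold, 506 stood below 3 times the background level in labelled-deficient and 612 in WT libraries, and 512 were protein coding. Of the 102 genes with falls of at least 2-fold, 24 stood below 3 times the background in labelled-deficient and none (0) in WT libraries, and 96 were protein coding. Of the 99 tested olfactory and vomeronasal receptor genes, 80 reached the minimum only in labelled-deficient cultures and none (0) only in WT cultures. Their median log2 fold change was 1.03, and the part of the filter in it was not tested. Without that minimum, counts per kb summed over the receptor genes had a log2 ratio of 0.96 with TMM scaling. Rises of genes near the background are therefore given with that level beside them.

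**Figure D2:**
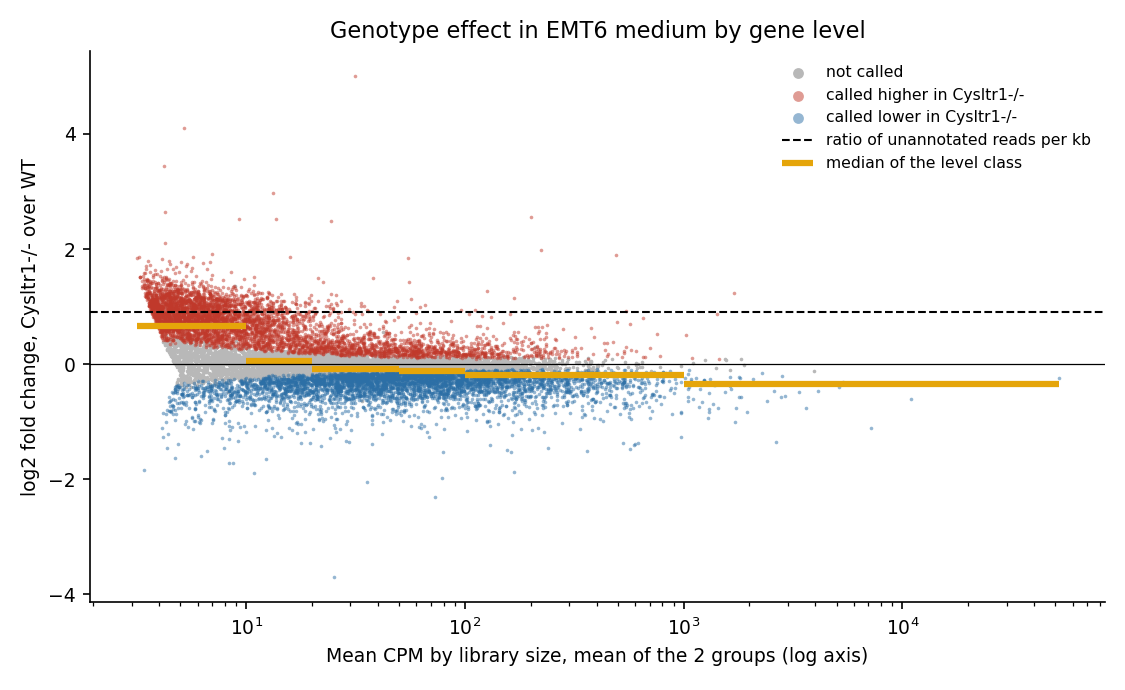
Log2 fold change, labelled Cysltr1-/- over WT in EMT6 medium, against the mean level in CPM (log axis) for the 13892 genes tested. Points are genes, each heavy horizontal line marks the median of a level class, and the dashed line marks 0.90, the log2 ratio of the density of reads outside annotated exons. The class medians run from 0.66 under 10 CPM, where most genes reached 5 CPM only in labelled-deficient cultures, to -0.34 at 1000 CPM or more.

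Cysltr1 itself was not lower in the cultures labelled as lacking it. Its levels, here and below in CPM scaled by TMM, were 7.30, 10.7 and 7.94 in the labelled Cysltr1-/- libraries, against 4.37, 4.79 and 4.72 in the WT libraries. Every labelled-deficient library lay above every WT library, with a log2 fold change of 0.88 ± 0.13 (SE; edgeR adjusted p = 1.1e-06). The background level for its exon length was 3.80 CPM by library size in labelled-deficient and 1.79 CPM in WT cultures, and with it subtracted the log2 fold change was 0.98. Cysltr1 was also higher by 0.47 with GM-CSF alone, at means of 74.5 CPM in labelled-deficient and 53.5 CPM in WT cultures, and by 0.29 with IL-6. The gene lies on the minus strand of the X chromosome (GRCm38, chrX:106574346-106603679). Counts over the whole gene do not show which part of the gene the reads came from, so they cannot check an allele that removes only part of it.

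Its neighbour Fndc3c1, which encodes a fibronectin type III domain protein, had 4.97, 5.60 and 4.47 CPM in labelled Cysltr1-/- libraries, against 1.84, 2.40 and 2.51 CPM in WT libraries. In EMT6 medium its log2 fold change was 1.17 ± 0.17 (edgeR adjusted p = 1.14e-06). The background level by library size was 4.67 CPM in labelled-deficient and 2.20 CPM in WT cultures. Both groups stood below 3 times that level. In the other cultures Fndc3c1 stood at means of 37.2 CPM in labelled-deficient and 0.540 CPM in WT cells with GM-CSF alone, and at 45.0 and 0.360 CPM with IL-6. Within 10 Mb of Cysltr1, 69 genes were tested, with a median log2 fold change of 0.08. Of these 30 were higher and 23 lower (76.8%), against 67.9% of all genes tested (35.1% higher, 32.7% lower).

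Among the 14 tested genes of the leukotriene pathway, 5 were higher and 6 lower, with a median log2 fold change of -0.07, and 5 and 4 with library sizes alone. With TMM scaling, 35.1% of all genes tested were higher and 32.7% lower, so these counts do not set the pathway apart. Alox5, the 5-lipoxygenase, had 73.9, 81.1 and 71.3 CPM in labelled-deficient libraries, against 133, 128 and 126 CPM in WT libraries. Its groups did not overlap, and it fell by 0.78 ± 0.05 on the log2 scale (edgeR adjusted p = 1.97e-13). Alox5ap, which encodes FLAP, fell by 0.42 and Ltb4r1, the high-affinity receptor of leukotriene B4, by 0.33. Ltb4r2, the low-affinity receptor for the same lipid, rose by 0.73, at means of 13.8 CPM in labelled-deficient and 8.40 CPM in WT cultures. Cysltr2, the second cysteinyl leukotriene receptor, averaged 4.85 ± 0.333 CPM in labelled Cysltr1-/- and 5.15 ± 0.485 CPM in WT cultures and did not pass the test (log2 fold change -0.07, edgeR adjusted p = 0.689).

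Chemokines that draw neutrophils and the growth factors of granulocytes were lower throughout the list: all 15 tested members were called lower, with a median log2 fold change of -0.64, and 13 with library sizes alone. Csf3, which encodes the granulocyte growth factor G-CSF, had 28.7, 27.1 and 32.5 CPM in labelled Cysltr1-/- libraries, against 119.9, 118 and 111 CPM in WT libraries. It was 3.96-fold lower, a fall of 1.99 ± 0.06 on the log2 scale (edgeR adjusted p = 8.08e-20), and its highest labelled-deficient library was far below its lowest WT library. Ppbp, the precursor of the neutrophil chemokine CXCL7, had 72.4, 80.8 and 79.1 CPM in labelled-deficient libraries, against 233, 237 and 202 CPM in WT libraries. It fell by 1.54 ± 0.05 on the log2 scale (edgeR adjusted p = 1e-18). Cxcl5, another ligand of the receptor CXCR2, had 17.0, 19.6 and 21 CPM in labelled-deficient libraries, against 50.3, 51.7 and 47.3 CPM in WT libraries, and was 2.60-fold lower. For both genes the groups lay well apart. The related ligands Cxcl3, Cxcl1 and Cxcl2 fell by 0.85, 0.63 and 0.47 on the log2 scale. Csf1, the macrophage growth factor, fell least of those named here, by 0.24.

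**Figure D3:**
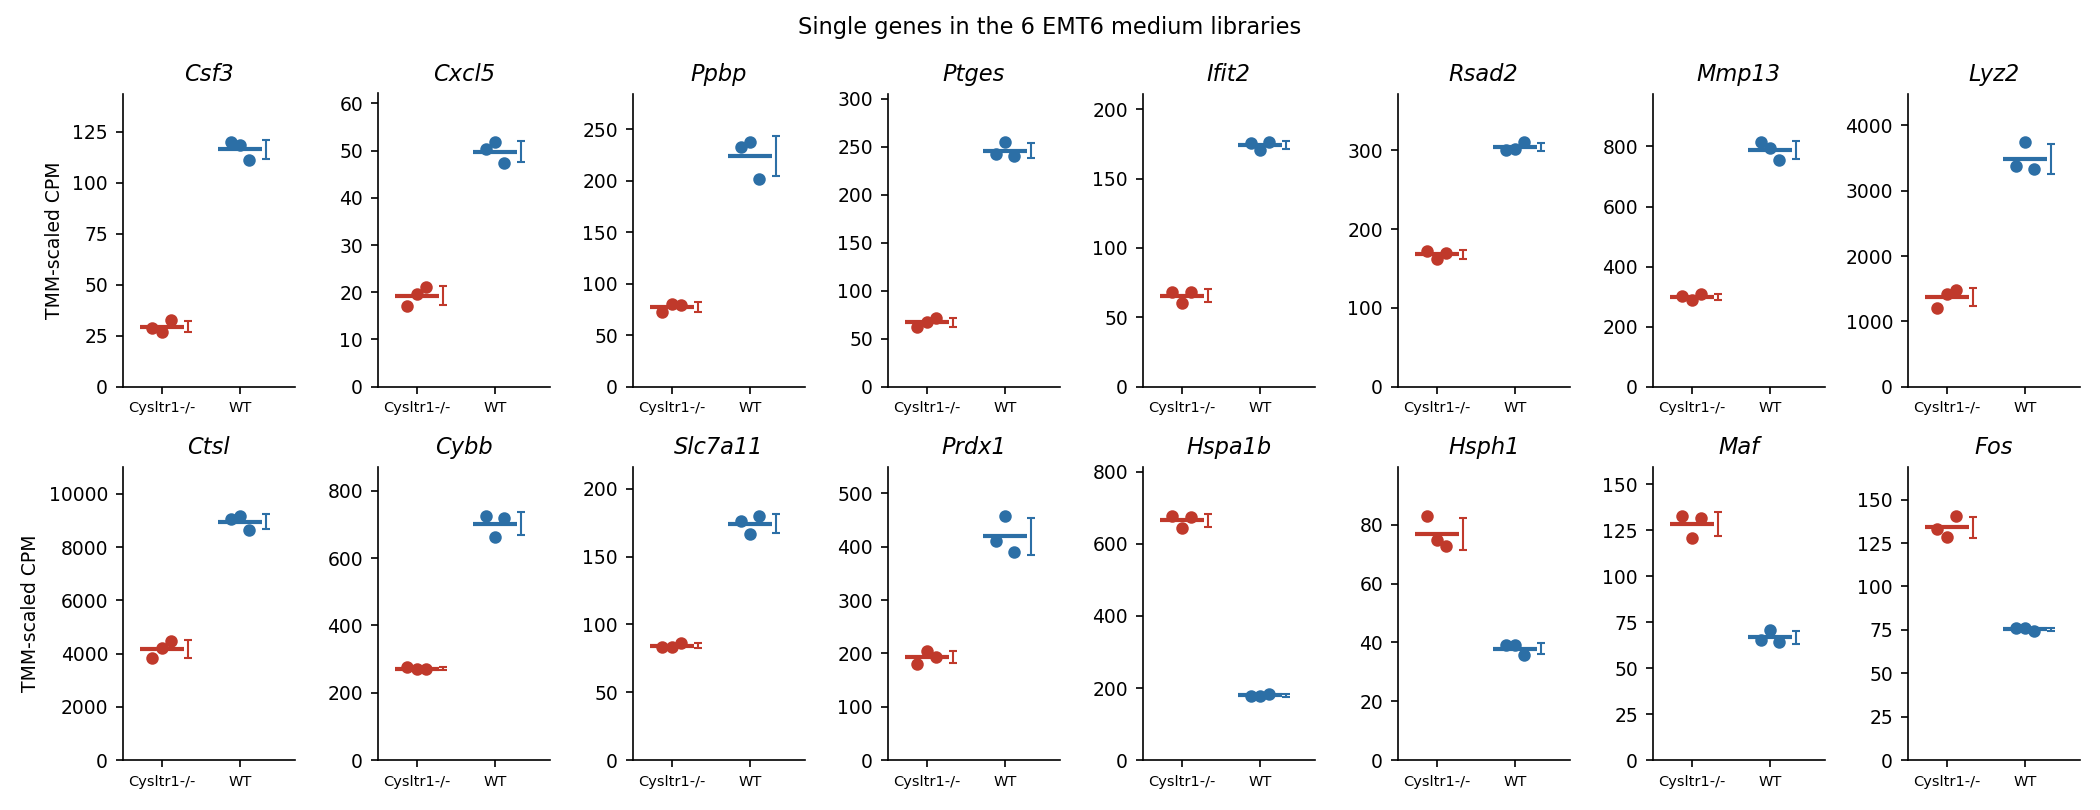
Levels in CPM scaled by TMM of 16 named genes in each of the 6 EMT6 medium libraries, labelled Cysltr1-/- left of WT in each panel. Dots are libraries, lines are means and bars are SD (n = 3); every axis starts at 0. The 12 panels from Csf3 to Prdx1 are lower in labelled-deficient libraries and the 4 from Hspa1b to Fos higher, with no overlap in any of the 16. Lack of overlap was a condition for naming the largest changes and held for 67% of all genes tested.

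Of 35 inflammatory cytokines and feedback genes of the transcription factor NF-kB, 5 were higher and 22 lower (median -0.29). The balance followed the scaling in part, with 11 higher and 17 lower (median -0.11) by library sizes alone and 8 higher and 19 lower with the background subtracted. Tnf, the cytokine TNF, had 113, 129 and 133 CPM in labelled-deficient libraries, against 272, 270.2 and 265 CPM in WT libraries, and was 2.16-fold lower (log2 -1.11 ± 0.06, edgeR adjusted p = 1.85e-14). Ccl4, a chemokine for monocytes and lymphocytes, had 88.5, 84.9 and 97.0 CPM in labelled-deficient libraries, against 209, 221 and 202 CPM in WT libraries, and was 2.34-fold lower. In both genes the groups stood clearly apart. Socs3, an inhibitor of STAT3 signalling, fell by 0.92 and Il1b by 0.69 on the log2 scale. Il6 averaged 10.8 ± 0.778 CPM in labelled-deficient and 11.9 ± 0.890 CPM in WT cultures, with overlapping libraries and no call (log2 -0.14, edgeR adjusted p = 0.181). Nfkbia, the NF-kB inhibitor that this factor itself induces, averaged 541 and 547 CPM in labelled-deficient and WT cultures and was not called (log2 -0.01, edgeR adjusted p = 0.775).

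Genes through which myeloid cells restrain T cells were mostly lower, 16 of 20 tested, with 2 higher (median -0.37), or 1 higher without labelled-deficient replicate 1 or 2 or WT replicate 2. Nos2, the inducible nitric oxide synthase, had 326, 311 and 320.1 CPM in labelled-deficient libraries, against 532, 492 and 526 CPM in WT libraries, a log2 fold change of -0.70 ± 0.05 (edgeR adjusted p = 3.08e-12). Arg1, arginase 1, had 164, 223 and 151 CPM in labelled-deficient libraries, against 244, 245 and 214 CPM in WT libraries. Its groups overlapped and its log2 fold change was -0.39 ± 0.08 (edgeR adjusted p = 0.000113). Cd274, which encodes the checkpoint ligand PD-L1, fell by 0.36, Tgfb1 by 0.50 and Hmox1, heme oxygenase 1, by 0.34 on the log2 scale. Il10, the gene of an anti-inflammatory cytokine, rose by 0.60, at means of 10.5 CPM in labelled-deficient and 6.92 CPM in WT cultures. Its background level by library size was 0.968 CPM in labelled-deficient and 0.457 CPM in WT cultures. Acod1, the enzyme that makes itaconate in activated macrophages, had 72.6, 77.5 and 75.9 CPM in labelled-deficient libraries, against 219.8, 210.2 and 207 CPM in WT libraries. It was 2.82-fold lower (edgeR adjusted p = 4.71e-20), and no labelled-deficient library came near a WT library.

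In the prostanoid pathway 3 of 14 tested genes were higher and 6 lower, against 35.1% and 32.7% of all genes tested. By library sizes alone 6 were higher and 5 lower, and with the background subtracted 1 was higher and 7 lower, so the balance turned with the scaling. Ptges, the synthase that completes prostaglandin E2, had 62.3, 66.9 and 71.7 CPM in labelled Cysltr1-/- libraries, against 242, 255 and 240.4 CPM in WT libraries. It was 3.68-fold lower (log2 -1.88 ± 0.05, edgeR adjusted p = 1.34e-20), with a wide gap between the groups. Ptgs2, the cyclooxygenase one step before it, fell by only 0.35 ± 0.05 on the log2 scale. Ptgds, a prostaglandin D2 synthase, rose by 1.60, with 6.13, 9.37 and 3.64 CPM in labelled-deficient libraries, against 1.58, 2.40 and 2.39 CPM in WT libraries.

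Among 38 genes that type I interferon induces, 26 were lower and 2 higher, with a median log2 fold change of -0.38. With library sizes alone 19 were lower and 7 higher, and with the background subtracted 20 were lower and 4 higher. Ifit2, an inhibitor of viral translation, had 68.3, 60.1 and 68.1 CPM in labelled-deficient libraries, against 176, 171 and 176 CPM in WT libraries. It fell by 1.41 ± 0.07 on the log2 scale (edgeR adjusted p = 2.07e-15). Rsad2, the antiviral enzyme viperin, had 172, 162 and 169 CPM in labelled-deficient libraries, against 300.3, 301 and 310.1 CPM in WT libraries, and fell by 0.86. The groups did not overlap in either gene. Ifit1 and Ifit3, relatives of Ifit2, fell by 1.18 and 1.38, although reads of Ifit3 may be shared with its near-identical copy Ifit3b. The fall did not extend to the whole list. Isg15, a ubiquitin-like modifier, averaged 71.5 ± 2.55 CPM in labelled-deficient and 66.4 ± 6.76 CPM in WT cultures (edgeR adjusted p = 0.176). Ifi27l2a rose by 0.39, at 195, 196 and 229 CPM in labelled-deficient libraries, against 166, 171 and 136 CPM in WT libraries.

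The promoters of Rsad2 and Ifit1 are shown because both genes fell and hold the response element through which interferon acts. Each is the 250 bases before the start of the gene in the gene's own direction, from RefSeq on GRCm38.p6, at chr12:26456453-26456702 on the minus strand for Rsad2 and chr19:34640639-34640888 on the plus strand for Ifit1. Capitals mark matches to GAAANNGAAA or its reverse complement TTTCNNTTTC, the core of that element, searched on both strands.
Rsad2: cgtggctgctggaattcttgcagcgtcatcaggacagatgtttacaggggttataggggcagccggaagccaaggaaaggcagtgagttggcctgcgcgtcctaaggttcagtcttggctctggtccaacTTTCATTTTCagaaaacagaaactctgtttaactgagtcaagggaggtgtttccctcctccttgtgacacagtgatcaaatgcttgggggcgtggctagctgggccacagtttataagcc
Ifit1: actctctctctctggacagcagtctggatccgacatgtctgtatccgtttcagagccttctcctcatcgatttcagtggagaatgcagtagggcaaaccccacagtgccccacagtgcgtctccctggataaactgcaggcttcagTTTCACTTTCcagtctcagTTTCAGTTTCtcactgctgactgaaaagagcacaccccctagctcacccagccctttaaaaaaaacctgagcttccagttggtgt
The match in Rsad2 begins 120 bases before the start and the first of 2 in Ifit1 104 bases before it. Of the 38 list members, 28 had a promoter in the RefSeq table and 13 held the motif, against 3.46% of all 27025 genes with a promoter. It was present in 9 of 23 called members and in 4 of 5 members that were not called. A match is a description of the sequence and does not show that a factor bound there.

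Lysosomal genes were lower almost throughout, 29 of 32 tested with none (0) higher, at a median log2 fold change of -0.54. Summed over the list they took 26776 to 27194 CPM in labelled Cysltr1-/- libraries and 42701 to 43573 CPM in WT libraries. Ctsl, the cysteine protease cathepsin L, had 3829, 4199 and 4488 CPM in labelled-deficient libraries, against 9066, 9175 and 8629 CPM in WT libraries. It was lower in every labelled-deficient library and fell by 1.10 ± 0.05 on the log2 scale (edgeR adjusted p = 1e-16). The proteases Ctsb and Ctsd fell by 0.76 and 0.56. With library sizes alone 27 members were lower and 3 higher, so the direction of the list did not turn with the scaling. Without WT replicate 2, 1 member was called higher.

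Single genes with a part in the killing of microbes by phagocytes were lower as well, though not all of them, as Ltf and Camp below. Lyz2, lysozyme of myeloid cells, had 1208, 1422 and 1476 CPM in labelled-deficient libraries, against 3385, 3740 and 3326 CPM in WT libraries, a fall of 1.35 ± 0.06 on the log2 scale (edgeR adjusted p = 2.72e-16). Cybb, the catalytic subunit of the phagocyte NADPH oxidase, had 276, 271 and 269 CPM in labelled-deficient libraries, against 725, 662 and 719 CPM in WT libraries, a fall of 1.37 ± 0.05 (edgeR adjusted p = 3.16e-19). The lowest WT library was above all labelled-deficient libraries for both. All 8 tested oxidase genes were lower, with a median of -0.37, and Ncf1, a cytosolic subunit, fell by only 0.28. Clec4e, the receptor Mincle for mycobacterial glycolipid, fell by 1.37. Of 17 Toll-like receptor and adaptor genes 11 were lower and none (0) higher, or 1 higher without WT replicate 1 or 2, and by library sizes alone 8 were lower and 4 higher.

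Of 26 genes of mature neutrophils, 22 were lower and none (0) higher (median -0.43), and their sum was 5837 to 6592 CPM in labelled-deficient libraries, against 8989 to 9829 CPM in WT libraries. Without labelled-deficient replicate 2 or WT replicate 1, 1 of them was called higher, and by library sizes alone 15 were lower and 1 higher. The mature neutrophil list was lower in the other cultures too. With GM-CSF alone 22 members were lower and 4 higher (median -0.67), and with IL-6 22 and 2 (median -0.70). In bulk RNA, fewer cells of a type and less of their RNA per cell cannot be told apart. The granule proteases Mmp9 and Mmp8 fell by 1.18 and 1.01 on the log2 scale, and the calcium-binding proteins S100a8 and S100a9 by 0.74 and 0.61. Granule genes made earlier in neutrophil development were less uniform. In primary granules 2 of 13 were higher and 9 lower, with Elane (neutrophil elastase) falling by 0.87 and Mpo (myeloperoxidase) by 0.33. In secondary and tertiary granules 3 of 20 were higher and 14 lower. By library sizes alone these counts were 2 and 6 for primary granules and 5 and 12 for the others. Without labelled-deficient replicate 2 the rises were 1 in each list, as they were for primary granules without replicate 1. Ltf, lactoferrin, had 44.4, 53.1 and 41.0 CPM in labelled-deficient libraries, against 37.7, 42.6 and 38.8 CPM in WT libraries, and rose by 0.22 with overlapping groups. Camp, the cathelicidin, rose by 0.44 (edgeR adjusted p = 0.0148), at 7.83 ± 1.28 CPM in labelled-deficient and 5.71 ± 0.389 CPM in WT cultures, and was no longer called without labelled-deficient replicate 2 (log2 fold change 0.33).

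Markers of the other myeloid lineages changed in both directions. Among macrophage genes 6 of 22 were higher and 12 lower, among monocyte genes 4 of 21 and 12, and among dendritic cell genes 6 of 19 and 11. The shares over all genes tested were 35.1% higher and 32.7% lower. By library sizes alone the counts were even or nearly so, at 8 higher and 9 lower for macrophage, 8 and 10 for monocyte, and 8 and 8 for dendritic cell genes. Genes of alternative activation leaned upwards, with 8 of 14 higher and 5 lower (median 0.24), or 9 and 3 by library sizes alone. Their sums overlapped, at 930 to 1139 CPM in labelled-deficient and 1019 to 1092 CPM in WT libraries. With GM-CSF alone 12 were higher and 2 lower (median 0.65), and with IL-6 9 and 1 (median 0.33). For 10 members the effect in EMT6 medium was more negative than with GM-CSF alone, and for 2 more positive. Chil3, a chitinase-like protein of such macrophages, had 119.5, 160.0 and 98.2 CPM in labelled-deficient libraries, against 84.8, 82.3 and 72.0 CPM in WT libraries, a log2 fold change of 0.66 ± 0.10 (edgeR adjusted p = 1.49e-06). Fn1, fibronectin, had 182, 283 and 138 CPM in labelled-deficient libraries, against 90.6, 99.8 and 81.5 CPM in WT libraries, and rose by 1.15. In both genes labelled-deficient replicate 2 was the highest library. Maf, a transcription factor of macrophages, had 133, 121 and 131 CPM in labelled-deficient libraries, against 65.4, 70.9 and 64.3 CPM in WT libraries, and rose by 0.95 ± 0.05 (edgeR adjusted p = 3.94e-14). Of 16 genes of antigen presentation by MHC class II, 12 were lower and 2 higher, or 9 and 4 by library sizes alone. Of 22 for MHC class I, 13 were lower and 4 higher, but with library sizes alone 5 were lower and 7 higher.

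B lineage genes were lower in 11 of 12 tested and higher in 1, with the largest fall in median among the lists of other cell types (-0.81). Their sum was 707 to 806 CPM in labelled-deficient libraries, against 1224 to 1327 CPM in WT libraries. Cd79a, a signalling chain of the B cell receptor, had 34.9, 35.9 and 41.9 CPM in labelled-deficient libraries, against 86.3, 87.1 and 81.1 CPM in WT libraries, and fell by 1.18. Ighm, the heavy chain of IgM, fell by 0.82. Fcrla, a B cell protein related to Fc receptors, fell by 1.64. The B lineage list was also lower in the other cultures, at medians of -0.57 with GM-CSF alone and -0.44 with IL-6. Eosinophil genes were lower in 4 of 6 and higher in 2, and mast cell and basophil genes lower in 8 of 12 and higher in 3. T and NK cell genes were lower in 4 of 7 and higher in 2. Of all genes tested, 32.7% were lower and 35.1% higher. Stromal and endothelial genes were higher in 10 of 17 and lower in 5 (median 0.76), and epithelial genes higher in all 6 (median 1.05). However, 7 of those 17 and 3 of those 6 stood below 3 times the background in labelled-deficient libraries. The part of these other cells in the falls and rises described here was not tested.

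Genes that the factor NRF2 induces against oxidants were lower in 22 of 24 tested, with none (0) higher and a median log2 fold change of -0.52. Slc7a11, the cystine importer that feeds glutathione synthesis, had 83.6, 83.1 and 86.5 CPM in labelled-deficient libraries, against 176, 167 and 180.1 CPM in WT libraries, a fall of 1.05 ± 0.05 (edgeR adjusted p = 6.14e-16). Prdx1, a peroxidase of hydrogen peroxide, had 181, 205 and 194 CPM in labelled-deficient libraries, against 411, 458 and 389.8 CPM in WT libraries, a fall of 1.12 ± 0.06 (edgeR adjusted p = 1.85e-14). The groups lay apart in both. Txnrd1, thioredoxin reductase, and Gclm, a subunit of the enzyme that starts glutathione synthesis, each fell by 0.72, and Nqo1, a quinone reductase, by 0.56. The count barely moved with the background subtracted, at 20 lower and 1 higher.

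The promoters of Prdx1 (chr4:116685349-116685598, plus strand) and Txnrd1 (chr10:82858956-82859205, plus strand) are shown because both fell and hold a match to the antioxidant response element. They are again the 250 bases before the start, from RefSeq on GRCm38.p6, and capitals mark TGACNNNGC or its reverse complement GCNNNGTCA.
Prdx1: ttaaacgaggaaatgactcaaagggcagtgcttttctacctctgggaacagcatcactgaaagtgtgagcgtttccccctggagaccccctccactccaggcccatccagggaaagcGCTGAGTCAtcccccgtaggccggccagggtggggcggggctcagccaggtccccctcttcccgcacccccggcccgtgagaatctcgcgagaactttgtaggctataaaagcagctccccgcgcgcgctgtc
Txnrd1: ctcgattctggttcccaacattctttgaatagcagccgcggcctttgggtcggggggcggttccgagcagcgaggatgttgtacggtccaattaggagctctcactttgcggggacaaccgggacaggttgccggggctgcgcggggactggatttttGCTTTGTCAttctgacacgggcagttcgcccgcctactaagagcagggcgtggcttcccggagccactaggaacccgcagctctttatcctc
The match lies 133 bases before the start in Prdx1 and 92 bases before it in Txnrd1. In Prdx1 it also holds TGAGTCA, the motif of the factor AP-1. The element was held by 5 of the 20 list members that had a promoter in the RefSeq set, 5 of 19 called and none (0) of the 1 not called, against 11.5% of all genes.

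Genes of metabolism and protein folding in the endoplasmic reticulum had smaller falls that followed the scaling. Nuclear genes of oxidative phosphorylation were lower in 25 of 33 and higher in 1 (median -0.27), and lower in 13 and higher in 5 with library sizes alone. Chaperones of the endoplasmic reticulum were lower in 17 of 21 (median -0.25), but in 7 with library sizes alone. Hspa5, the chaperone BiP, had 827, 820.0 and 833 CPM in labelled-deficient libraries, against 1071, 1115 and 1065 CPM in WT libraries, and fell by 0.39. In the list for glycolysis and hypoxia 23 of 32 were lower and 4 higher, against 12 lower and 9 higher with library sizes alone. For cell cycle genes the direction turned: 14 of 30 were lower and 2 higher with TMM scaling, 8 lower and 10 higher with library sizes alone. Leaving out labelled-deficient replicate 2 gave 4 cell cycle genes higher, and leaving out replicate 1 gave 2 glycolysis and hypoxia genes higher. The 1 rise in oxidative phosphorylation was lost (0) without labelled-deficient replicate 1 or 2 or WT replicate 3. Cdk1, the kinase that starts mitosis, averaged 27.4 ± 3.17 CPM in labelled-deficient and 27.6 ± 1.47 CPM in WT cultures and was not called (edgeR adjusted p = 0.924).

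**Figure D4:**
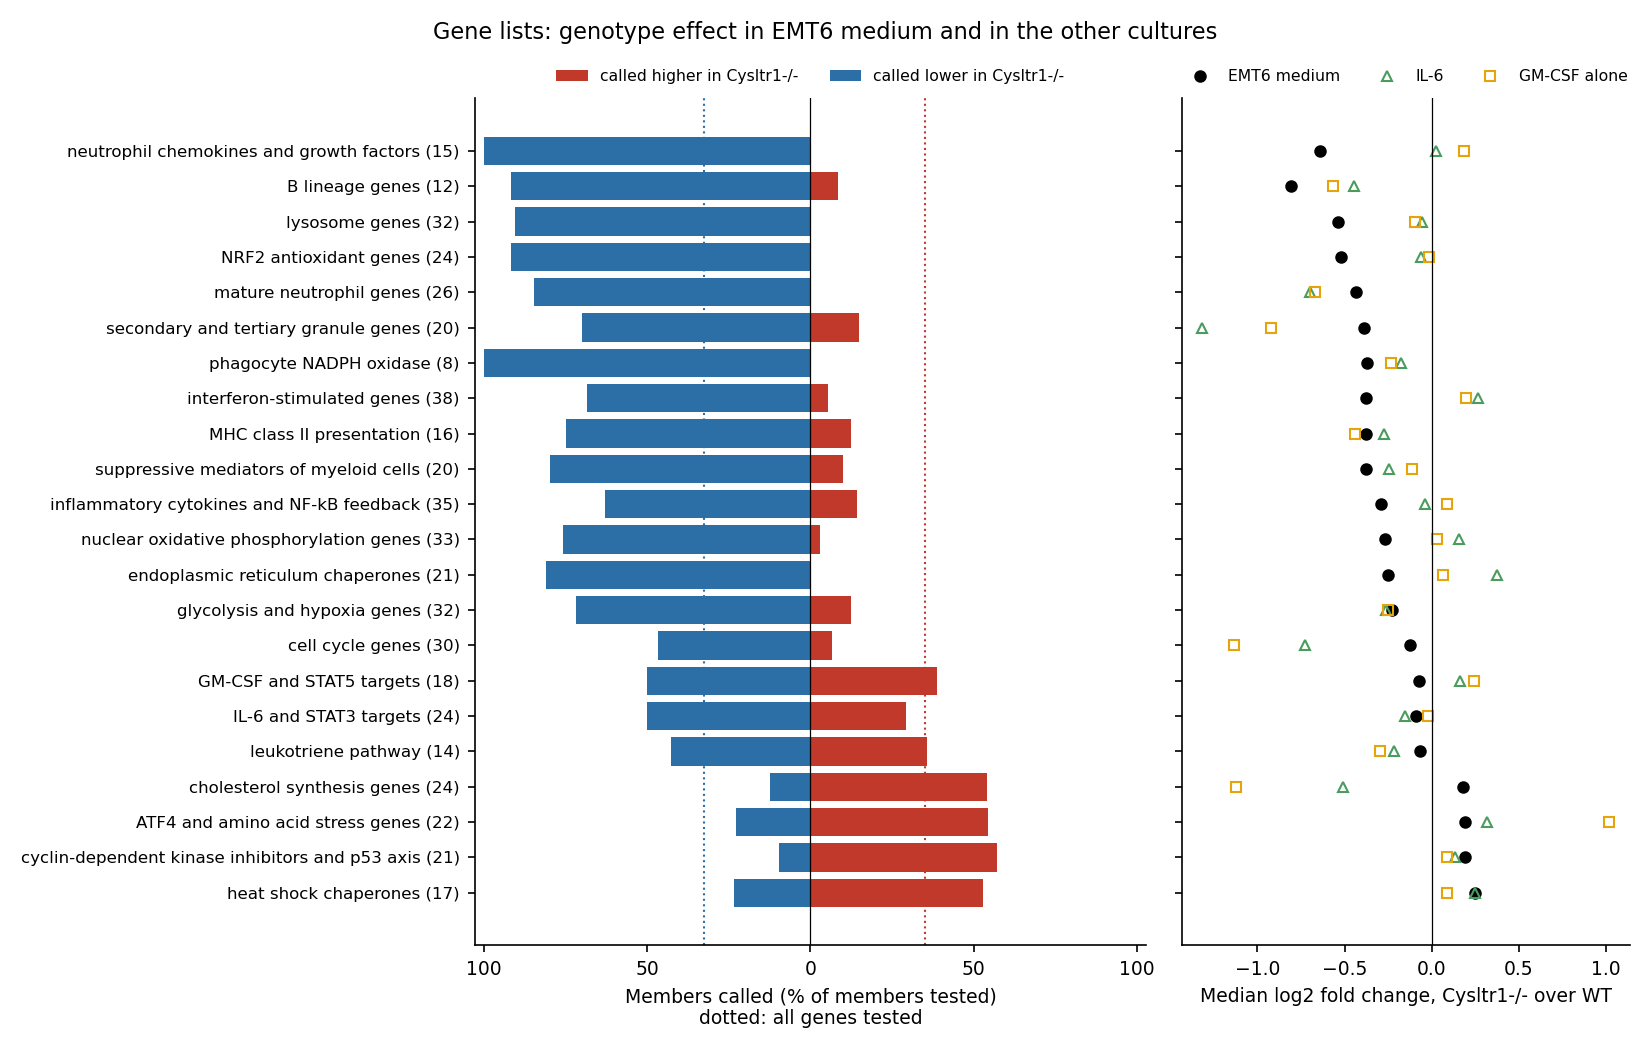
Left, the percentage of tested members of 22 gene lists called higher or lower in labelled Cysltr1-/- than in WT cultures in EMT6 medium; dotted lines mark 35.1% and 32.7%, the shares over all genes tested. Right, the median log2 fold change of each list in the 3 cultures. Lists run from neutrophil chemokines and growth factors, with all 15 members lower, to heat shock chaperones, with 9 of 17 higher.

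Heat shock genes moved the other way, at levels well above the background. Of 17 tested 9 were higher and 4 lower (median 0.25), 2 lower without any one of the libraries except labelled-deficient replicate 3, and by library sizes alone 14 were higher and none (0) lower. Their sum was 3188 to 3276 CPM in labelled-deficient libraries, against 2240 to 2282 CPM in WT libraries. Hspa1b, an inducible HSP70, had 677, 643 and 674 CPM in labelled-deficient libraries, against 177, 178 and 183 CPM in WT libraries. It rose by 1.89 ± 0.04 on the log2 scale (edgeR adjusted p = 2.12e-22), and its libraries hardly varied within a group. Hspa1a, its near-identical neighbour, had 299, 309 and 311 CPM in labelled-deficient libraries, against 80.2, 70.6 and 81.5 CPM in WT libraries, a rise of 1.98 ± 0.05, and reads may be split between the pair. Hsph1, a partner of HSP70, rose by 1.02, Dnaja1, a J-domain co-chaperone, by 0.87, and Hsp90aa1, the inducible HSP90, by 0.65. Hspd1, the chaperone of mitochondria, fell by 0.17.

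The promoters of the HSP70 pair are shown because both genes rose about alike and lie beside each other (Hspa1b at chr17:34959239-34959488 and Hspa1a at chr17:34972157-34972406, both minus strand, RefSeq, GRCm38.p6, 250 bases before the start). Capitals mark GAANNTTC, the core of the heat shock element, which is its own reverse complement.
Hspa1b: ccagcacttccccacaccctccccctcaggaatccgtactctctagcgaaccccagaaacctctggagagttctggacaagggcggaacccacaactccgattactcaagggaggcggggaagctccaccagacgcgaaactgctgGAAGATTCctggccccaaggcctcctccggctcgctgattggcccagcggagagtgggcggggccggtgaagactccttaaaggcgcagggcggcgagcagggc
Hspa1a: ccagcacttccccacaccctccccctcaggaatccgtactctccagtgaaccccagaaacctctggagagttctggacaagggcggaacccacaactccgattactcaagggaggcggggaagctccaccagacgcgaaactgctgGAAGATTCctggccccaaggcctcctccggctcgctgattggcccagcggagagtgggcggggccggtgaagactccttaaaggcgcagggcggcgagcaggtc
The sequences are identical at 247 of 250 bases (98.8%), and the match begins 104 bases before the start in each. Of 13 list members with a promoter 6 held the core, 5 of 10 called and 1 of 3 not called, against 7.73% of all genes.

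Rises of moderate size were shared by genes of cholesterol synthesis, 13 of 24 higher and 3 lower (median 0.18), or 19 higher and none (0) lower by library sizes alone. Hmgcs1, an early enzyme of that pathway, had 163, 164 and 163 CPM in labelled-deficient libraries, against 94.7, 101 and 102 CPM in WT libraries, and rose by 0.72 ± 0.04 (edgeR adjusted p = 6.35e-14). Sqle, squalene epoxidase, rose by 0.27. Of 22 genes of amino acid stress that ATF4 controls, 12 were higher and 5 lower (3 without WT replicate 1 or 2), with Trib3, a pseudokinase of that response, rising by 0.55. By library sizes alone 14 of these were higher and 1 lower. Inhibitors of cyclin-dependent kinases and genes of the p53 axis were higher in 12 of 21 and lower in 2 (18 and 1 by library sizes alone), and Cdkn1a, the inhibitor p21, rose by 0.28. The balance of immediate early genes shifted with the scaling. With TMM scaling 10 of 26 were higher and 11 lower (7 lower without WT replicate 1 or 3), against 35.1% and 32.7% of all genes tested. By library sizes alone 14 were higher and 3 lower, and with the background subtracted 13 were higher and 6 lower. Fos, a subunit of AP-1, had 133, 128 and 141 CPM in labelled-deficient libraries, against 75.9, 75.8 and 74.5 CPM in WT libraries, and rose by 0.83, whereas Egr1, a zinc finger factor of the same class, fell by 0.67.

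The largest single falls outside these lists included genes of varied function. Selenop, the selenium transport protein, had 20.5, 25.3 and 23 CPM in labelled-deficient libraries, against 112, 114 and 114 CPM in WT libraries, a log2 fold change of -2.31 ± 0.06 (edgeR adjusted p = 4.41e-21). Cbx2, a subunit of a Polycomb repressor complex, had 11.9, 11.9 and 15.1 CPM in labelled-deficient libraries, against 53.4, 53.4 and 53.6 CPM in WT libraries, a change of -2.05 ± 0.08. Both were also lower in labelled-deficient cells with GM-CSF alone, by 1.25 and 1.18, and with IL-6, by 1.75 and 1.06. Ccn3, a matricellular protein, fell by 1.51 in EMT6 medium, although it was higher by 0.19 in both other cultures. H2-Q7, a nonclassical class I gene, had 3.29, 3.59 and 3.31 CPM in labelled-deficient libraries, against 46.2, 43.4 and 43.0 CPM in WT libraries, a change of -3.70 ± 0.11. Its labelled-deficient level was below 3 times the background of 3.15 CPM by library size. Its near-identical neighbour H2-Q6 rose by 0.49, so the division of reads between the pair is uncertain.

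The largest rises held genes whose neighbours rose too. The labels do not describe how far the mice of the labelled-deficient and WT groups match outside Cysltr1, so strain or substrain differences and the Cysltr1 genotype cannot be told apart for these genes, nor for H2-Q7 above and Mfap1a below. Mid1, a ubiquitin ligase of microtubules on the X chromosome, had 39.7, 31.3 and 35.7 CPM in labelled-deficient libraries, against 6.52, 6.13 and 6.46 CPM in WT libraries, a log2 fold change of 2.48 ± 0.11 (edgeR adjusted p = 3.36e-16). Dnah8, a dynein of sperm tails, and Glo1, which detoxifies methylglyoxal, overlap on chromosome 17 and rose by 1.84 and 1.43. Dnah8 had 76.1, 71.5 and 74.0 CPM in labelled-deficient libraries, against 19.4, 22.6 and 20.4 CPM in WT libraries. Its background level by library size was 19.8 CPM in labelled-deficient and 9.36 CPM in WT cultures. Zhx2, a homeobox repressor, was 2.83-fold higher. On the log2 scale, Mid1, Dnah8, Glo1 and Zhx2 were higher in labelled-deficient cells in all 3 cultures, by 2.07, 1.35, 1.39 and 2.29 with GM-CSF alone and by 2.09, 1.46, 1.59 and 2.29 with IL-6. Fgb, the fibrinogen beta chain, rose by 1.86 in EMT6 medium, and its 18.9, 32 and 13.6 CPM in labelled-deficient libraries varied far more than those of the genes above.

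The genotype difference in EMT6 medium was then set against that in the other cultures, with the difference of the 2 effects tested for each gene in the same fit. With GM-CSF alone 51.3% of genes were called, 30.3% higher and 21% lower in labelled-deficient cells, and with IL-6 53%, 32.3% higher and 20.7% lower. The effect in EMT6 medium differed from that with GM-CSF alone in 7001 genes (50.4%), being more positive in 2690 (19.4%) and more negative in 4311 (31%). It differed from that with IL-6 in 6161 genes (44.3%), being more positive in 2282 (16.4%) and more negative in 3879 (27.9%). Both comparisons use the same EMT6 medium libraries. Genes called in opposite directions numbered 1697 against GM-CSF alone and 1425 against IL-6.

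Mmp13, a collagenase, was among the genes that turned direction. In EMT6 medium it had 301, 289.5 and 308 CPM in labelled-deficient libraries, against 814, 796 and 756 CPM in WT libraries. With GM-CSF alone it averaged 272 CPM in labelled-deficient and 78.3 CPM in WT cells, and with IL-6 1680 and 473 CPM. The log2 fold changes were -1.40 ± 0.05 in EMT6 medium, 1.79 with GM-CSF alone and 1.83 with IL-6, and the effects differed by -3.19 and -3.23 (edgeR adjusted p = 2.73e-23 and 8.63e-24). Hbegf, a growth factor that binds the EGF receptor, changed by -1.08 in EMT6 medium and by 1.97 and 1.42 in the others. Cxcl3 changed by -0.85 in EMT6 medium, 1.64 with GM-CSF alone and 0.55 with IL-6, and Ccl4 by -1.23, 1.16 and 1.05.

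The chemokine and growth factor list as a whole had a median log2 fold change of 0.19 with GM-CSF alone and 0.03 with IL-6, and for 14 of its 15 members the effect in EMT6 medium was more negative than with GM-CSF alone. The same held for 28 of 38 interferon-induced genes, whose medians were 0.20 and 0.26 in the other cultures. It held as well for 26 of 32 lysosomal genes, with medians of -0.10 and -0.05, and for 18 of 24 NRF2 targets. Ctsl, lower by 1.10 in EMT6 medium, was higher by 0.33 with GM-CSF alone and by 0.25 with IL-6. Slc7a11, lower by 1.05 in EMT6 medium, was higher by 0.86 and 0.48.

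Some groups differed in the other direction. For all 24 cholesterol synthesis genes the effect in EMT6 medium was more positive than with GM-CSF alone, where the median was -1.12. Hmgcs1 there averaged 56.1 CPM in labelled-deficient and 157 CPM in WT cells, a log2 fold change of -1.48. Cell cycle genes had medians of -1.13 with GM-CSF alone and -0.73 with IL-6, against -0.12 in EMT6 medium. Primary granule genes had medians of -1.48 and -0.98, against -0.33, and Elane fell by 3.04 with GM-CSF alone and by 2.52 with IL-6. Secondary and tertiary granule genes had medians of -0.92 with GM-CSF alone and -1.32 with IL-6, against -0.39 in EMT6 medium. Hspa1b, higher by 1.89 in EMT6 medium, was lower by 0.86 with GM-CSF alone and higher by 0.52 with IL-6. Fos fell by 0.98 and 1.39 in those cultures, against a rise of 0.83 in EMT6 medium.

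**Figure D5:**
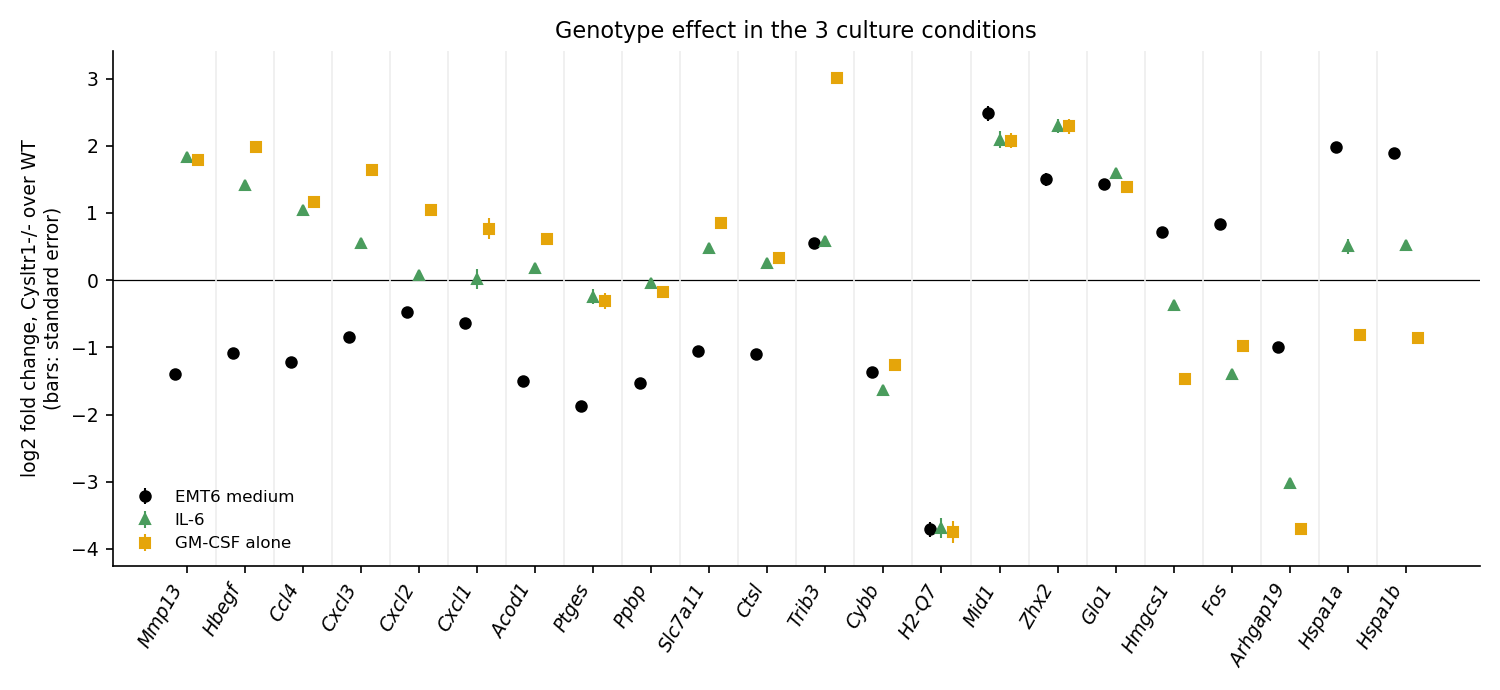
Log2 fold change ± SE, labelled Cysltr1-/- over WT, of 22 genes in EMT6 medium, with IL-6 and with GM-CSF alone (n = 3 libraries per genotype and culture). Mmp13, Hbegf and Ccl4 lie below 0 in EMT6 medium and above 0 in the other cultures; Cybb and H2-Q7 lie below 0 in all 3, and Mid1 and Glo1 above 0 in all 3.

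A further set of genes differed alike in the 3 cultures. Cybb changed by -1.37 in EMT6 medium, -1.27 with GM-CSF alone and -1.63 with IL-6, and Mmp9 by -1.18, -1.08 and -1.37. Mfap1a, a splicing factor with a near-identical copy, changed by -1.90, -2.05 and -2.28. Of the 102 falls of at least 2-fold in EMT6 medium, 33 were also called lower in both other cultures, as were 169 of the 998 rises called higher. Over all genes tested, 21% were called lower with GM-CSF alone and 20.7% with IL-6, and 30.3% and 32.3% higher. The share of all genes called in both was not counted.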

How the data were processed

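The deposited values are raw counts per gene in 1 file per library. Per the submitters' processing notes, the authors aligned reads to the mouse build mm10 using HISAT2 2.1.0 and counted them using HTSeq 0.13.5. The annotation and the strand setting used for counting are not given in the sources used here, so reads of overlapping genes on opposite strands, antisense genes included, are uncertain, as are those of near-identical copies. Gene symbols and exon lengths came from GENCODE M21. Summary lines of HTSeq, 97 spike-in entries and 26248 numbered entries, at 0.440% ± 0.0113 of feature counts in labelled Cysltr1-/- and 0.208% ± 0.0158 in WT EMT6 medium libraries, stayed out of library sizes and tests.

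Genes with a mean of at least 5 CPM in either EMT6 medium group were tested with edgeR 4.0.16 in R 4.3.3 (quasi-likelihood F test, TMM scaling, 1 mean per group, all 18 libraries in the fit). Adjustment followed Benjamini and Hochberg over all 13892 genes, and a gene is called where its adjusted p was under 0.05. The SE of a log2 fold change is its size divided by the square root of F. Counts in annotated genes ran from 9.58 to 32.0 M per library over the series. On data simulated for this comparison (13892 genes), 50 genes were altered at each size of change. Recovery was 19 at 1.2-fold, 37 at 1.5-fold, 49 at 2-fold and 50 at 4-fold, beside 7 false calls. The background is the density of reads in no feature over the genome outside exons, times exon length, in CPM by library size. It covers the average alone, since such reads need not lie evenly.

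Named genes were the largest changes among called genes that had a gene name, did not overlap between groups and lay at least 3 times above the background in the higher group, the largest differences between cultures, a set of receptor, cytokine and interferon genes given by name, called genes near Cysltr1, and the leading members of the gene lists. Further list members were named after their values were seen: Csf1, Cxcl5, Tgfb1, Nfkbia, Ltb4r1, Ltb4r2, Ifi27l2a, Ctsd, Ncf1, Mpo, Ltf, S100a9, Fn1, Gclm, Nqo1, Hsp90aa1, Hspd1, Sqle, Cdkn1a, Cdk1 and Egr1. The lists and the members were chosen with earlier results of these data known. Alternatives were DESeq2 1.42.0, its size factors, library sizes alone, other filters on low counts, a background subtracted in either of 2 ways, only the 6 libraries, a replicate block, and each library left out. A few named genes are left out here. Promoters came from RefSeq tables on GRCm38.p6.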

Additional observations from a re-analysis of the deposited data

Results flagged for a closer look

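The genotype effect in EMT6 medium differed from that with GM-CSF alone in 7001 genes and from that with IL-6 in 6161 genes, by the test of the difference between effects. The values below are such differences on the log2 scale, EMT6 medium minus the other culture, so a negative value means that labelled Cysltr1-/- cells stood lower against WT in EMT6 medium than in the other culture. Among secreted proteases and signals, Mmp13 differed by -3.19 against GM-CSF alone and by -3.23 against IL-6, Hbegf by -3.06 and -2.50, Ccl4 by -2.39 and -2.27, and Mmp10, the protease stromelysin 2, by -2.38 and -2.22. Cxcl3 differed by -2.49 and Trib3 by -2.47 against GM-CSF alone. Dcn, the matrix proteoglycan decorin, differed by -2.33 and Derl3, a component of protein disposal from the endoplasmic reticulum, by -2.17 against IL-6. The mean level of Mmp10 in labelled Cysltr1-/- cultures in EMT6 medium was 2.47 CPM, against 5.63 CPM in WT cultures, so its values rest on few counts.

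Differences in the other direction were those of Hspa1b (2.75) and Hspa1a (2.80) against GM-CSF alone, and of Fdps, farnesyl diphosphate synthase of the cholesterol pathway, with 3.09 against GM-CSF alone and 1.78 against IL-6. Camp differed by 2.44 and 3.15, Nxpe5 by 2.29 and 2.11, and Arhgap19, a regulator of the GTPase RhoA, by 2.72 and 2.03. Arhgap19 was lower in labelled-deficient cells in every culture, by 0.99 in EMT6 medium, 3.71 with GM-CSF alone and 3.02 with IL-6. Against IL-6, Fos differed by 2.22 and BC117090, a stefin-like gene with near-identical copies, also by 2.22.

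Numbered entries of the deposited files that carry no gene identifier took a mean of 0.440% of feature counts in labelled Cysltr1-/- libraries, against 0.208% in WT libraries in EMT6 medium, with p = 0.1 in the two-sided exact permutation test, the smallest that 3 against 3 can give.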

How the results depend on the processing

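Of 269 named genes 231 kept their direction and their side of the threshold under every setting that tested them, of 16 settings tried. The minimum of 20 CPM did not test all of the 269, and 199 kept both under it. The log2 fold change turned direction for Atrx (-0.029), Ogt (-0.026) and Taf1 (-0.077) without a filter, Csf2ra with library sizes alone (0.061) and Ftx with the unannotated background subtracted (-0.032). The counts moved most with the filter and the scaling. The edgeR default filter called 14749 genes (9143 higher; 3631 at least 2-fold higher and 305 lower, 3936 in all), and no filter called 7520 lower, with 2232 at least 2-fold higher, 532 lower and 2764 in all. A minimum of 20 CPM called 4918 genes (2389 higher, 2529 lower; 92 at least 2-fold higher, 46 lower, 138 in all), with fewer genes tested, and 4380 with IL-6 and 4658 for the difference from GM-CSF alone. Library sizes alone called 2299 lower, with 1795 at least 2-fold higher, 50 lower and 1845 in all. Falls of at least 2-fold numbered 365 with the unannotated background subtracted and 157 with a background from olfactory and vomeronasal receptor genes. As shares of all reads in place of gene counts, the ratios of labelled-deficient to WT were 1.44 for those receptor genes, 0.609 for mitochondrial genes and 1.01 for histone genes.

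Leaving out 1 library gave 8520 to 9039 called genes, 4456 to 4971 higher, 3795 to 4315 lower, and 1028 to 1446 at least 2-fold (938 to 1347 higher, 90 to 110 lower). The range was 6349 to 7339 with GM-CSF alone, 6198 to 6892 with IL-6, and 6345 to 7082 and 5495 to 5988 for the differences from them. Same-numbered libraries in EMT6 medium had correlations of 0.069, 0.053 and -0.066 between genotypes. Differently numbered ones ran from -0.177 to 0.132. So few values cannot decide whether the numbers pair the libraries, and correlations across cultures were not computed. The replicate block gave 9447 calls. Depth limits small changes of low genes, more so in labelled-deficient libraries.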

Other observations

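The genes of this section were chosen after their values were seen. Of all genes tested 35.1% were called higher in labelled Cysltr1-/- cultures in EMT6 medium, and 4 noncoding RNAs are given here as examples with no statement on their class. Malat1, a nuclear noncoding RNA of speckles, averaged 2066 CPM in labelled-deficient and 881 CPM in WT cultures, a log2 fold change of 1.23 ± 0.12 (edgeR adjusted p = 1.55e-09), whereas with GM-CSF alone and with IL-6 it changed by 0.11 and 0.01 and was not called. Neat1, the scaffold of paraspeckles, rose by 0.50, Kcnq1ot1, an antisense RNA of an imprinted region, by 0.89, and Meg3, an imprinted noncoding RNA, by 1.02. The share of reads in no annotated feature, 50.2% in labelled-deficient and 36.2% in WT libraries, moved the same way, and its part in these rises was not tested.

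Larger rises than those in the report were found next to Mid1 among transcripts without a full gene name. On the X chromosome G530011O06Rik averaged 51.8 CPM in labelled-deficient and 1.57 CPM in WT cultures, a log2 fold change of 5.01 ± 0.16, against 4.06 with GM-CSF alone and 3.93 with IL-6. Its neighbours Gm15726, Gm15247 and Gm21887 rose by 4.10, 2.65 and 2.56. Beside Glo1 and Dnah8 on chromosome 17, AC165951.1, AC165962.4 and AC165962.1 rose by 3.44, 2.51 and 1.90 in EMT6 medium, and all of these transcripts were called higher in both other cultures too. Gm10382, on chromosome 5, differed in EMT6 medium by 2.98, at 20.2 CPM in labelled-deficient and 2.52 CPM in WT cultures, and changed by 0.06 with GM-CSF alone and -0.26 with IL-6 without being called. Several of these lie antisense to or within other genes, and without a stated strand setting their reads cannot be assigned with certainty.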
